A study of Mus musculus with 16 samples.

Results

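Inhibitory receptors and their ligands were followed in stimulated regulatory T cells (Treg cells), the Foxp3-expressing CD4+ T cells that restrain immune responses. The set held 10 genes, listed by symbol and matched through the array's annotation: the receptors Pdcd1, Havcr2, Lag3, Klrg1, Btla and Cd160, the surface ligands Cd274, Pdcd1lg2 and Cd200, and the secreted suppressor Fgl2. All 10 of 10 symbols were found, each with 1 probe set, among 22180 genes with a probe set of a single symbol, and all 10 passed the filter that left 16760 genes for testing. The symbols were not chosen by a threshold on measured values, but earlier results of these data were known when the set was drawn up.

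Expression was measured on 16 arrays in 4 groups of 4: Treg cells from rapamycin-treated Atg7-/- mice, rapamycin-treated Atg7+/- mice, untreated Atg7-/- mice and untreated Atg7+/- mice, all C57BL/6. Atg7 encodes an enzyme that autophagy, the delivery of cell contents to the lysosome, needs. Atg7-/- mice were Atg7fl/flFoxp3-Cre and Atg7+/- mice were Atg7+/flFoxp3-Cre, so both genotypes carried a Cre recombinase expressed with Foxp3, and the Atg7+/- cells kept 1 intact allele. Rapamycin, an inhibitor of the kinase mTOR, was injected intraperitoneally at 4 mg per kg daily for 5 days, and the other mice are labelled untreated, with no vehicle named. CD4+Foxp3-YFP+ cells were sorted from spleen and lymph nodes, and cells of every group were then stimulated for 4 h on plates coated with antibodies to CD3 and CD28. The labels do not say which arrays came from separate mice or pools, and each p-value is therefore about the spread between these arrays alone, possibly a technical one.

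Inhibitory receptors damp signals from the T cell receptor, mostly through cytoplasmic tyrosine motifs that recruit phosphatases. PD-1, encoded by Pdcd1, binds PD-L1 (Cd274) and PD-L2 (Pdcd1lg2), whose genes lie close together on the same chromosome. BTLA and CD160 share the ligand HVEM, LAG-3 resembles CD4 and binds MHC class II, TIM-3 (Havcr2) marks cytokine-producing effector cells, KLRG1 marks differentiated effector cells and binds cadherins, and CD200 is the ligand of CD200R1. Activated Treg cells carry several of these receptors, and FGL2 is a soluble protein through which Treg cells can suppress other cells.

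Promoter windows are shown for the 4 genes with the clearest changes that the RefSeq promoter table (GRCm38.p6) held. Each is the 250 bases before the start listed there. For Cd274 that start lies inside the RefSeq gene span, which begins at chr19:29362107. Capitals mark every match to TGANTCA, the AP-1 motif, or GGAAA, the NFAT core, on either strand; AP-1 and NFAT are factors that T cell receptor signals activate.
Pdcd1 promoter, chr1:94052554-94052803, minus strand: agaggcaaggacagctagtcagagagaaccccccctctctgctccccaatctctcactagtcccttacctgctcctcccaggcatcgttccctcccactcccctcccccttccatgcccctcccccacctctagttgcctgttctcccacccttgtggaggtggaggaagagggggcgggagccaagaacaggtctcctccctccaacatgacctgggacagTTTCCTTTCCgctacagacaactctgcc
Havcr2 promoter, chr11:46454681-46454930, plus strand: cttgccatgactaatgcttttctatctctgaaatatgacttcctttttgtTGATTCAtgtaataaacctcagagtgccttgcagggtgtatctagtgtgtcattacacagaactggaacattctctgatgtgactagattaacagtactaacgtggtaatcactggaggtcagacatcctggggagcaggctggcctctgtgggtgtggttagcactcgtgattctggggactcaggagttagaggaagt
Fgl2 promoter, chr5:21372423-21372672, plus strand: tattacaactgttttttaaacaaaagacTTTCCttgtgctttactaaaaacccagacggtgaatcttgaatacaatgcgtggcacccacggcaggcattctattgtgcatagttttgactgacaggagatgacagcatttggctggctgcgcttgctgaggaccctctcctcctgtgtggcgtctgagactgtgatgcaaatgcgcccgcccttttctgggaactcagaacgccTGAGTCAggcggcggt
Cd274 promoter, chr19:29367188-29367437, plus strand: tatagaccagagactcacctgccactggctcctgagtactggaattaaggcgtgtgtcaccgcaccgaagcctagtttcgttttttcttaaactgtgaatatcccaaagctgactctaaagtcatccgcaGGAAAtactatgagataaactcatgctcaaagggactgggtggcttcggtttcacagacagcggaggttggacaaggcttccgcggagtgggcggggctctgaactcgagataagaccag

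The table matched 8 of the 10 genes, with 2 windows for Cd160, and did not list Klrg1 or Lag3. TGANTCA was found in 2 of their 9 windows, those of Havcr2 and Fgl2, and in 6.75% of 32851 windows of this length, with 1 chromosome left out. GGAAA was found in 5 of the 9, in 1 of the 2 windows of Cd160 and in those of Pdcd1, Fgl2, Cd274 and Pdcd1lg2, against 55.6% of the 32851 windows. Pdcd1 had 2 GGAAA matches side by side. No window of the 8 genes held GTAAACA, a Foxo motif, or the interferon response motif GAAA repeated after 2 bases, which 3.17% and 2.98% of the 32851 windows held. These letters describe the windows and say nothing of binding.

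Before the genes are described, 3 facts about the arrays bear on their values. The second principal component of the tested genes, with 14.6% of the variance, placed rapamycin Atg7-/- replicate 3 at -29.83, where its 3 fellow replicates lay between -12.88 and -7.57, and this array's median log2 signal of 4.411 was the lowest of the 16. Rapamycin Atg7+/- replicate 3 was also the lowest of its group on that component, at 0.35, against 4.88 to 15.1 for its fellows. The 7 Treg markers (Foxp3, Cd4, Cd3e, Il2ra, Ctla4, Ikzf2 and Tnfrsf18) were above the dim-gene threshold of 3.549 on every array. Foxp3 fell between untreated genotypes (limma, log2 fold change -0.40, adjusted p = 0.0355), a call for which no alternatives are given here. It had 10.94, 11.04, 10.91 and 10.53 in untreated Atg7-/- cells, against 11.24, 11.32, 11.24 and 11.24 in untreated Atg7+/- cells. Between rapamycin genotypes it had -0.35 (limma adjusted p = 0.0662), not called, with every Atg7-/- array below every Atg7+/- array. With rapamycin Cd4 and Cd3e fell in both genotypes, by up to 0.75 on the log2 scale, and Tnfrsf18 rose in both (0.26 in Atg7-/- and 0.29 in Atg7+/- cells). Ctla4 fell in Atg7-/- cells (-0.37), with -0.05 in Atg7+/- cells. The part of such shifts in the values below was not tested. Atg7, measured by 1 probe set, had a mean log2 signal ± SD over 4 arrays of 6.48 ± 0.314 with rapamycin in Atg7-/- cells, against 6.78 ± 0.0781 in Atg7+/- cells. Without rapamycin it had 6.38 ± 0.24 in Atg7-/- cells, against 6.66 ± 0.0598 in Atg7+/- cells. The labels do not give the deleted exons and the probe set may lie outside them, so Atg7 does not check the genotypes.

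**Figure D1:**
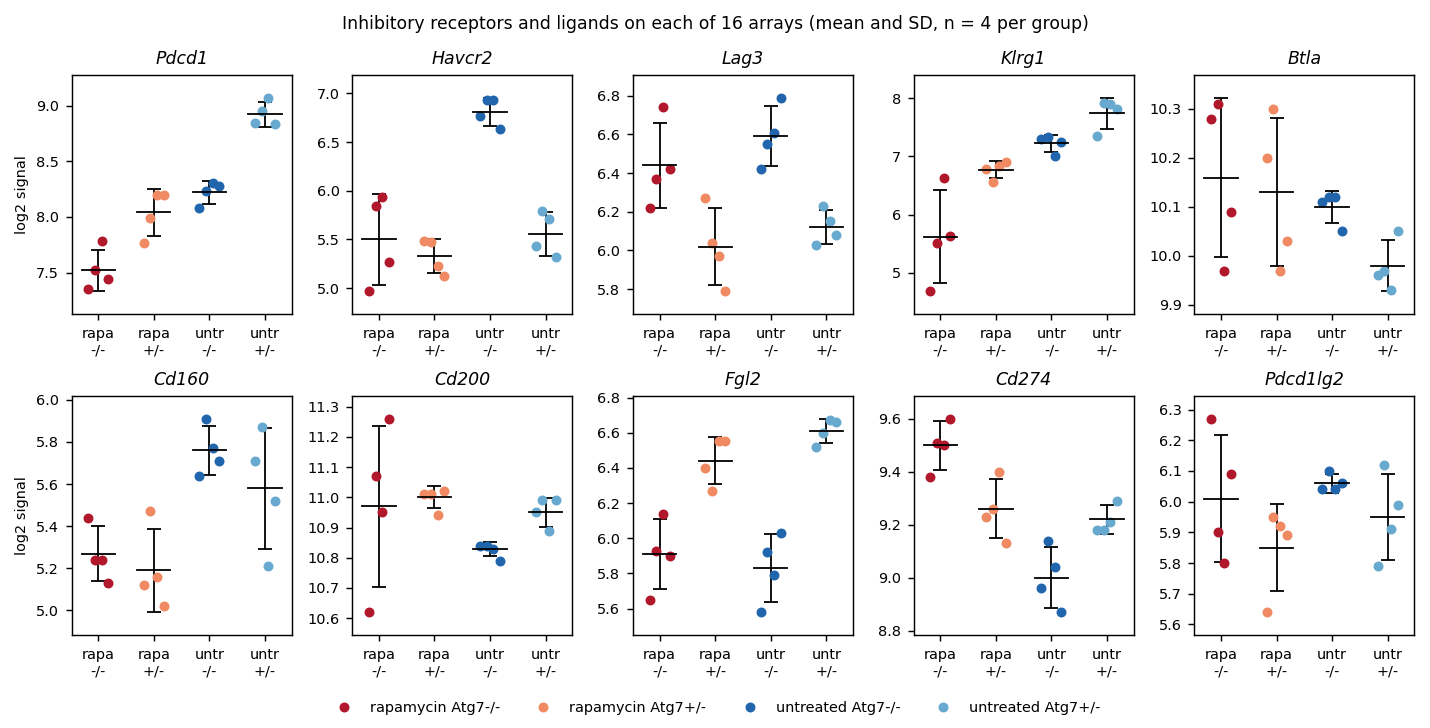
Log2 signal (y axes, 1 scale per gene) of the 10 genes on every array, by group: rapamycin (rapa) and untreated (untr), Atg7-/- and Atg7+/-; points are arrays, long bars are means and error bars are SD over 4 arrays. Pdcd1 is lowest in rapamycin Atg7-/- cells (7.35 to 7.78) and highest in untreated Atg7+/- cells (8.83 to 9.07), Havcr2 stands apart in untreated Atg7-/- cells (6.63 to 6.93), and Fgl2 separates by genotype.

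The comparison of untreated cells asks what loss of both Atg7 alleles does to this set. Havcr2 and Lag3 rose and Pdcd1 and Fgl2 fell in untreated Atg7-/- cells relative to untreated Atg7+/- cells, so 4 of the 10 genes were called, against 3.14% of all genes tested, 1.75% higher and 1.39% lower (limma, two-sided, Benjamini-Hochberg adjusted p under 0.05 over all genes). The median log2 fold change was -0.01 over the 10 genes and 0.02 over all genes tested. In 8 of the 10 the 4 arrays of one genotype lay wholly above or below those of the other (3 above, 5 below), against 14.1% of all genes tested. The gap was narrow for Klrg1, Cd274, Cd200 and Btla. In bulk samples fewer cells expressing a gene and less RNA per cell cannot be told apart.

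Havcr2, the TIM-3 gene, had log2 signals of 6.77, 6.93, 6.93 and 6.63 in untreated Atg7-/- cells, against 5.43, 5.79, 5.71 and 5.32 in untreated Atg7+/- cells. Every Atg7-/- array was above every Atg7+/- array, and the difference was 2.38-fold (limma, log2 fold change 1.25, SE 0.177, adjusted p = 0.000786). Lag3 had 6.42, 6.55, 6.61 and 6.79 in untreated Atg7-/- cells, against 6.03, 6.23, 6.15 and 6.08 in untreated Atg7+/- cells. It rose 1.39-fold without overlap (0.47, SE 0.119, adjusted p = 0.0375). That call was lost with each array centred on its median (adjusted p = 0.08), with the replicate block (0.0536) and when 1 of 7 arrays was left out, any of the Atg7+/- ones or replicate 2, 3 or 4 of the Atg7-/- ones (up to 0.112), within a range of 0.0151 to 0.112 over all alternatives.

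Pdcd1, the PD-1 gene, moved the other way, with 8.08, 8.23, 8.30 and 8.28 in untreated Atg7-/- cells, against 8.84, 8.95, 9.07 and 8.83 in untreated Atg7+/- cells. It fell 1.63-fold (limma, log2 fold change -0.70, SE 0.112, adjusted p = 0.00199), with a gap between the genotypes of more than their spread. Fgl2 had 5.58, 5.92, 5.79 and 6.03 in untreated Atg7-/- cells, against 6.52, 6.60, 6.67 and 6.66 in untreated Atg7+/- cells. It fell 1.71-fold (-0.78, SE 0.111, adjusted p = 0.000881) and no array of one genotype reached the range of the other.

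The other 6 genes were not called between untreated genotypes, though the arrays of 4 of them did not overlap. Klrg1 had a log2 fold change of -0.52 (95% interval -1.06 to 0.03, adjusted p = 0.317), with 7.30, 7.33, 7.01 and 7.25 in untreated Atg7-/- cells, against 7.35, 7.91, 7.89 and 7.81 in untreated Atg7+/- cells. Its SDs were 0.149 and 0.265 in these groups and 0.796 in rapamycin Atg7-/- cells. The fit pools the spread over all groups, so the SE of Klrg1 can be too large here. Without rapamycin Atg7-/- replicate 3 it was still not called (limma adjusted p = 0.102). Cd274, the PD-L1 gene, had -0.22 (-0.39 to -0.04, adjusted p = 0.184), with 9.14 and 9.18 as the nearest arrays of the 2 genotypes. Cd200 and Btla also did not overlap, but differed by only -0.13 (-0.34 to 0.09) and 0.12 (-0.07 to 0.32). Their nearest arrays were 10.84 and 10.89 for Cd200, and both 10.05 to 2 decimals for Btla. Their SDs too were smaller in the untreated groups (0.0233 to 0.0518) than in rapamycin Atg7-/- cells (0.266 and 0.163). Cd160 had 0.18 (-0.10 to 0.45) and Pdcd1lg2, the PD-L2 gene, 0.11 (-0.11 to 0.33), with overlapping arrays. For Btla, Cd200 and Pdcd1lg2 the intervals leave room for no change larger than 0.34 in either direction on the log2 scale.

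**Figure D2:**
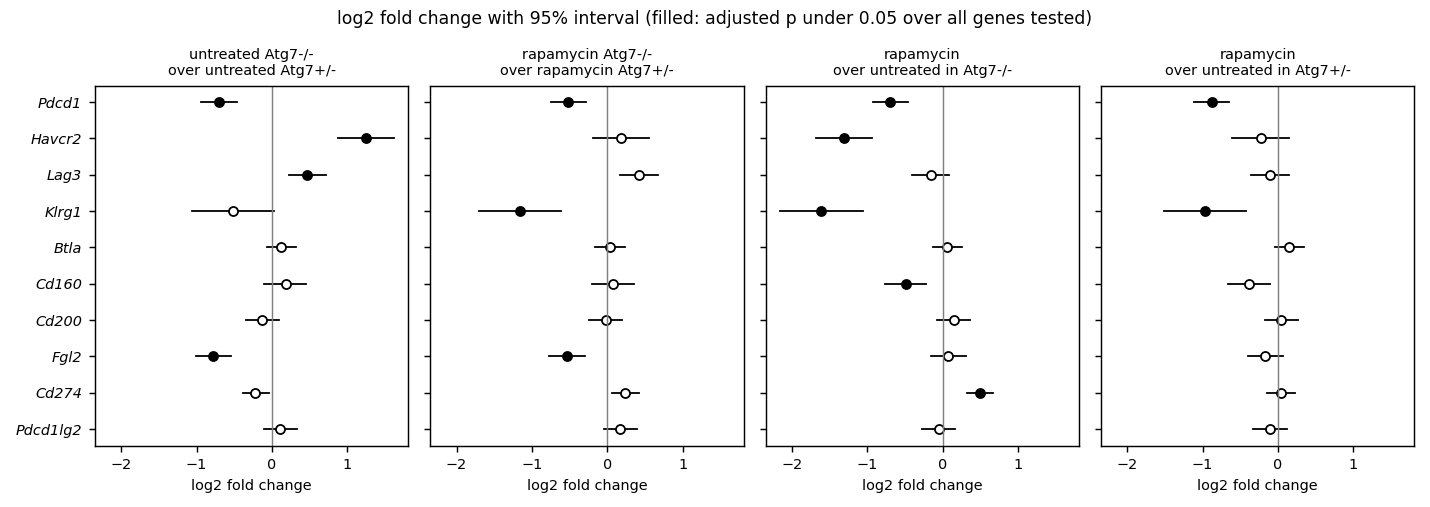
Log2 fold change (x axes) of each of the 10 genes in 4 comparisons, with its 95% interval from the fit; filled circles passed an adjusted p under 0.05. Havcr2 lies at 1.25 in the panel of untreated genotypes and at -1.31 in that of rapamycin in Atg7-/- cells, while Pdcd1 lies below 0 in all 4 panels.

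The same comparison under rapamycin asks whether the genotypes differ when both have received the drug. Pdcd1, Klrg1 and Fgl2 fell in rapamycin Atg7-/- cells relative to rapamycin Atg7+/- cells and none of the 10 rose, so 3 of 10 were called, against 3.24% of all genes tested, 1.91% higher and 1.33% lower. The median log2 fold change was 0.05 over the 10 genes and 0.02 over all genes tested. The arrays of 1 gene, Fgl2, did not overlap, against 9.77% of all genes tested.

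Fgl2 had log2 signals of 5.65, 5.93, 6.14 and 5.90 in rapamycin Atg7-/- cells, against 6.40, 6.27, 6.55 and 6.55 in rapamycin Atg7+/- cells. It fell 1.45-fold (limma, log2 fold change -0.54, SE 0.111, adjusted p = 0.0163), next to -0.78 without the drug. Pdcd1 had 7.35, 7.52, 7.78 and 7.44 in rapamycin Atg7-/- cells, against 7.77, 7.99, 8.20 and 8.20 in rapamycin Atg7+/- cells. It fell 1.43-fold (-0.52, SE 0.112, adjusted p = 0.0198), and the highest Atg7-/- array, replicate 3, just passed the lowest Atg7+/- array.

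Klrg1, the marker of differentiated effector cells, had 4.69, 5.51, 6.63 and 5.63 in rapamycin Atg7-/- cells, against 6.78, 6.56, 6.84 and 6.91 in rapamycin Atg7+/- cells. It fell 2.23-fold (log2 fold change -1.16, SE 0.26, adjusted p = 0.0234). The Atg7-/- arrays spread from 4.69 to 6.63, and only replicate 3 reached the range of the Atg7+/- arrays. Without replicate 3 the difference was -1.50 (adjusted p = 0.000732) and without replicate 1 it was -0.85 (adjusted p = 0.0369).

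None of these 3 calls held when the fit used only the 8 rapamycin arrays, where the adjusted p was 0.0844 for Fgl2, 0.113 for Pdcd1 and 0.132 for Klrg1. The main model pools each gene's spread over the 4 groups, while the SD of Klrg1 was 0.796 in rapamycin Atg7-/- cells and 0.149 to 0.265 in the other groups, so its SE can be too small here. Over all alternatives the adjusted p ran from 0.0103 to 0.0844 for Fgl2, from 0.00699 to 0.113 for Pdcd1 and from 0.000732 to 0.132 for Klrg1. The Pdcd1 call was also lost with median centring (0.0748) and without 1 of rapamycin Atg7+/- replicates 2 and 4 and Atg7-/- replicate 4 (0.0653, 0.0577 and 0.0549). The Klrg1 call was also lost without 1 of Atg7+/- replicates 1, 2 and 4 and Atg7-/- replicate 4 (0.0571, 0.0653, 0.0578 and 0.0534), and the Fgl2 call with quantile normalization (0.0521), with median centring (0.0589) and without Atg7+/- replicate 4 (0.0501).

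Havcr2 was not called between the rapamycin groups, with 4.97, 5.84, 5.94 and 5.27 in rapamycin Atg7-/- cells, against 5.48, 5.47, 5.23 and 5.12 in rapamycin Atg7+/- cells (log2 fold change 0.18, 95% interval -0.19 to 0.55, adjusted p = 0.664). Lag3 had 6.22, 6.37, 6.74 and 6.42, against 6.27, 6.04, 5.97 and 5.79, a difference of 0.42 (0.17 to 0.67) that missed the threshold (adjusted p = 0.0598) and passed it in 5 alternatives, down to 0.0344 with quantile normalization. Cd274 had a log2 fold change of 0.24 (0.06 to 0.42, adjusted p = 0.123). Btla, Cd200, Cd160 and Pdcd1lg2 lay between -0.02 and 0.17, with adjusted p from 0.435 to 0.946.

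Rapamycin in Atg7+/- mice asks what the drug does where 1 allele of Atg7 is intact. Pdcd1 and Klrg1 fell in rapamycin Atg7+/- cells relative to untreated Atg7+/- cells, 2 of 10, against 14.1% of all genes tested, 6.03% higher and 8.11% lower, and none rose. The median log2 fold change was -0.14 over the 10 genes and -0.03 over all genes tested. It shares the untreated Atg7+/- arrays with the comparison of untreated genotypes.

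Pdcd1 had 7.77, 7.99, 8.20 and 8.20 in rapamycin Atg7+/- cells, against 8.84, 8.95, 9.07 and 8.83 in untreated Atg7+/- cells. All rapamycin arrays were lower, and it fell 1.84-fold (limma, log2 fold change -0.88, SE 0.112, adjusted p = 9.46e-05). Klrg1 had 6.78, 6.56, 6.84 and 6.91 in rapamycin Atg7+/- cells, against 7.35, 7.91, 7.89 and 7.81 in untreated Atg7+/- cells. It fell 1.96-fold without overlap (-0.97, SE 0.26, adjusted p = 0.0192), a call lost without 1 of untreated replicates 2 and 3 and rapamycin replicate 2 (0.0526, 0.0517 and 0.0583, within 0.00115 to 0.0583 over all alternatives). Arrays that did not overlap were found for these 2 genes of the 10 and for 22.7% of all genes tested.

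Cd160 came close, with 5.12, 5.47, 5.16 and 5.02 in rapamycin Atg7+/- cells, against 5.71, 5.87, 5.21 and 5.52 in untreated Atg7+/- cells (limma, log2 fold change -0.39, 95% interval -0.66 to -0.11, adjusted p = 0.0548). It was called in 7 alternatives, among them the replicate block (0.0329). Havcr2 had a log2 fold change of -0.23 (-0.61 to 0.14) in Atg7+/- cells. Fgl2 had -0.17 (-0.40 to 0.07), Btla 0.15 (-0.04 to 0.34), and Lag3, Cd200, Cd274 and Pdcd1lg2 lay between -0.11 and 0.04.

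Rapamycin in Atg7-/- mice asks the same where both alleles are floxed. Pdcd1, Havcr2, Klrg1 and Cd160 fell and Cd274 rose in rapamycin Atg7-/- cells relative to untreated Atg7-/- cells, 5 of 10, against 20.0% of all genes tested, 8.83% higher and 11.1% lower. The median log2 fold change was -0.10 over the 10 genes and -0.04 over all genes tested. The same 5 genes had arrays that did not overlap, against 20.4% of all genes tested. Each of the 5 calls held under all 25 alternatives.

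Klrg1 had 4.69, 5.51, 6.63 and 5.63 in rapamycin Atg7-/- cells, against 7.30, 7.33, 7.01 and 7.25 in untreated Atg7-/- cells. It fell 3.05-fold (log2 fold change -1.61, SE 0.26, adjusted p = 0.00044), and by 1.30 to 1.95 on the log2 scale without 1 array, the ends being without rapamycin replicate 1 and without rapamycin replicate 3. Havcr2 had 4.97, 5.84, 5.94 and 5.27 in rapamycin Atg7-/- cells, against 6.77, 6.93, 6.93 and 6.63 in untreated Atg7-/- cells. It fell 2.48-fold (-1.31, SE 0.177, adjusted p = 9.51e-05), and the rapamycin Atg7-/- arrays overlapped those of both Atg7+/- groups. Of 8 conventional T cell markers, Themis was the 1 called between untreated genotypes, where it rose (1.36). With rapamycin in Atg7-/- cells 3 of the 8 fell, Themis (-1.34), Cd40lg (-0.66) and Actn1 (-0.49), and 3 rose, Il7r (0.96), Lef1 (0.54) and Satb1 (0.50). In Atg7+/- cells the drug lowered Actn1 (-0.71) and Cd40lg (-0.75) and raised Il7r (0.55) and Satb1 (0.44). Of all genes tested, 3.14% were called between untreated genotypes, 20.0% for rapamycin in Atg7-/- cells and 14.1% in Atg7+/- cells. The summed linear signal of the 8 markers was 2819 to 3676 on rapamycin Atg7-/- arrays and 2518 to 3042 on rapamycin Atg7+/- arrays. It was 3147 to 3645 on untreated Atg7-/- arrays, against 3005 to 3089 on untreated Atg7+/- arrays. Such a sum mostly follows its brighter genes, among them Cd40lg, with mean log2 signals of 9.96, 9.37, 10.61 and 10.11 in these groups in turn. Between rapamycin genotypes Cd40lg was the 1 marker of the 8 called, and it rose (limma, log2 fold change 0.59, adjusted p = 0.0301), against 3.24% of all genes called. The part of conventional T cells in the values was not tested.

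Pdcd1 had 7.35, 7.52, 7.78 and 7.44 in rapamycin Atg7-/- cells, against 8.08, 8.23, 8.30 and 8.28 in untreated Atg7-/- cells, and fell 1.62-fold (limma, log2 fold change -0.70, SE 0.112, adjusted p = 0.000408). Cd160, the other HVEM receptor beside Btla, had 5.44, 5.24, 5.24 and 5.13, against 5.64, 5.91, 5.77 and 5.71, and fell 1.41-fold (-0.49, SE 0.13, adjusted p = 0.0129). Cd274 had 9.38, 9.51, 9.50 and 9.60 in rapamycin Atg7-/- cells, against 8.96, 9.14, 9.04 and 8.87 in untreated Atg7-/- cells. It was the 1 gene of the set to rise, 1.41-fold with every rapamycin array above every untreated one (0.50, SE 0.0844, adjusted p = 0.000667). Its neighbour Pdcd1lg2 had a log2 fold change of -0.05 (95% interval -0.27 to 0.17).

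Fgl2, which fell between genotypes, had a log2 fold change of 0.07 (95% interval -0.16 to 0.31) for rapamycin in Atg7-/- cells. Lag3 had -0.16 (-0.41 to 0.09), Cd200 0.15 (-0.07 to 0.36) and Btla 0.06 (-0.13 to 0.26), with overlapping arrays. Cd200 was called without rapamycin Atg7-/- replicate 1, the lowest array at 10.62, where it was 0.26 (adjusted p = 0.0348).

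The difference of the rapamycin effects, Atg7-/- minus Atg7+/-, was called for none of the 10 genes and for 0.00% of all genes tested by limma, where the smallest adjusted p was 0.139. At an unadjusted p under 0.05 it passed for 1052 genes, 6.28% of those tested, and for 2 of the 10. Those were Havcr2, with a log2 difference of -1.08 (SE 0.25, unadjusted p = 0.000446, adjusted p = 0.349), and Cd274, with 0.46 (SE 0.119, unadjusted p = 0.00127, adjusted p = 0.435). So the fall of Havcr2 and the rise of Cd274, called in Atg7-/- cells and not in Atg7+/- cells, were not shown to differ between genotypes. Klrg1 had -0.64 (95% interval -1.41 to 0.13), Pdcd1 0.19 (-0.15 to 0.52) and Fgl2 0.24 (-0.09 to 0.57), and the other 5 lay between -0.10 and 0.10.

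The order of the 4 groups differed from gene to gene. The means of Pdcd1 ran from 7.52 in rapamycin Atg7-/- cells through 8.04 in rapamycin Atg7+/- and 8.22 in untreated Atg7-/- cells to 8.92 in untreated Atg7+/- cells, with overlap between the lower 3 neighbours and a gap below the highest group. Klrg1 had the same order, at 5.62, 6.77, 7.22 and 7.74, with overlap only between the lowest pair. Fgl2 split into a low pair of Atg7-/- groups (5.91 with and 5.83 without rapamycin) and a high pair of Atg7+/- groups (6.44 and 6.61), each pair overlapping within itself. Havcr2 had 1 high group, untreated Atg7-/- cells at 6.81, and 3 overlapping ones at 5.50, 5.33 and 5.56 in rapamycin Atg7-/-, rapamycin Atg7+/- and untreated Atg7+/- cells. Neighbouring groups all overlapped for Lag3, Cd160 and Pdcd1lg2. The range of the group means was 8.88 times the pooled within-group SD for Pdcd1, 5.26 for Havcr2, 5.16 for Cd274, 4.94 for Fgl2 and 4.92 for Klrg1, and it was 3.34 for Lag3 and 2.9 for Cd160. It was 1.62 for Btla, 1.49 for Pdcd1lg2 and 1.24 for Cd200, the genes with the smallest spread among groups.

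In several groups 1 array was the highest or the lowest for many of the 10 genes. Replicate 2 was the highest for 5 in untreated Atg7-/- cells and for 6 in untreated Atg7+/- cells, where replicate 1 was the lowest for 5. The rapamycin Atg7-/- arrays are given in full because the spread of Klrg1 was widest there. Among them replicate 1 was the lowest of the 4 arrays for 7 of the 10 genes (Pdcd1, Havcr2, Lag3, Klrg1, Cd200, Fgl2 and Cd274). Replicate 3 was the highest for 5 (Pdcd1, Havcr2, Lag3, Klrg1 and Fgl2) and the lowest for Btla and Pdcd1lg2. On replicate 3 the summed linear signal of 4 neutrophil markers was 350, against 77 to 161 on the other arrays of the group, and that of 7 macrophage markers was 467, against 228 to 286. The part of these cells in the values was not tested; the calls in Atg7-/- cells for rapamycin held without replicate 3 and without replicate 1.

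**Figure D3:**
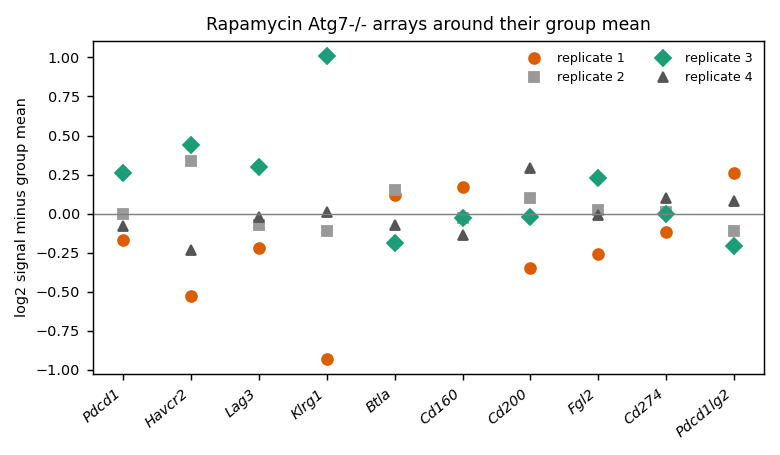
Log2 signal minus the group mean (y axis) of each of the 10 genes (x axis) on the 4 rapamycin Atg7-/- arrays, 1 symbol per replicate. Replicate 1 is the lowest for 7 genes and replicate 3 the highest for 5, and Klrg1 has the widest spread, with an SD of 0.796.

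TIM-3, LAG-3, KLRG1 and CD160 are also found on CD8 T and NK cells, and PD-L1 and PD-L2 on dendritic cells and macrophages, so markers of those cells are given beside them. The 10 CD8 T and NK markers had summed linear signals of 460 to 509 on rapamycin Atg7-/- arrays and 306 to 358 on rapamycin Atg7+/- arrays, and of 543 to 577 on untreated Atg7-/- arrays and 404 to 417 on untreated Atg7+/- arrays. Of the 8 tested, Gzma and Nkg7 rose between untreated genotypes (log2 fold changes 1.14 and 0.86) and Cd8b1 and Nkg7 between rapamycin genotypes (0.72 and 0.94), and Gzma fell with rapamycin in Atg7-/- cells (-1.06). Of all genes tested, 3.14%, 3.24% and 20.0% were called in these comparisons in turn. Gzma averaged 4.69 in untreated Atg7-/- cells, but 3.54 in untreated Atg7+/- cells and 3.63 and 3.35 in rapamycin Atg7-/- and Atg7+/- cells, near the dim-gene threshold. Cd8a, Ncr1, Klrb1c, Prf1 and Eomes were not called in any comparison. Klrk1, an NK receptor gene, was at or under the dim-gene threshold on all arrays. The cells were sorted on CD4 and Foxp3-YFP. The part of CD8 T and NK cells in the values of Havcr2, Lag3, Klrg1 and Cd160 was not tested.

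The 6 dendritic cell markers measured summed to 243 to 286 on rapamycin Atg7-/- arrays and 283 to 332 on rapamycin Atg7+/- arrays, and to 301 to 317 on untreated Atg7-/- arrays and 294 to 331 on untreated Atg7+/- arrays. The 7 macrophage markers summed to 228 to 467 and 325 to 431 on those rapamycin arrays, and to 320 to 379 and 307 to 337 on the untreated ones. With rapamycin in Atg7-/- cells the dendritic cell marker Xcr1 (log2 fold change -1.10) and the macrophage marker C1qa (-0.54) fell, and no marker of either list was called higher. In Atg7+/- cells, where Cd274 was not called, Xcr1 also fell by 1.10 and the dendritic cell marker Flt3 rose (0.55). The part of these cells in the values of Cd274 and Pdcd1lg2 was not tested.

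**Figure D4:**
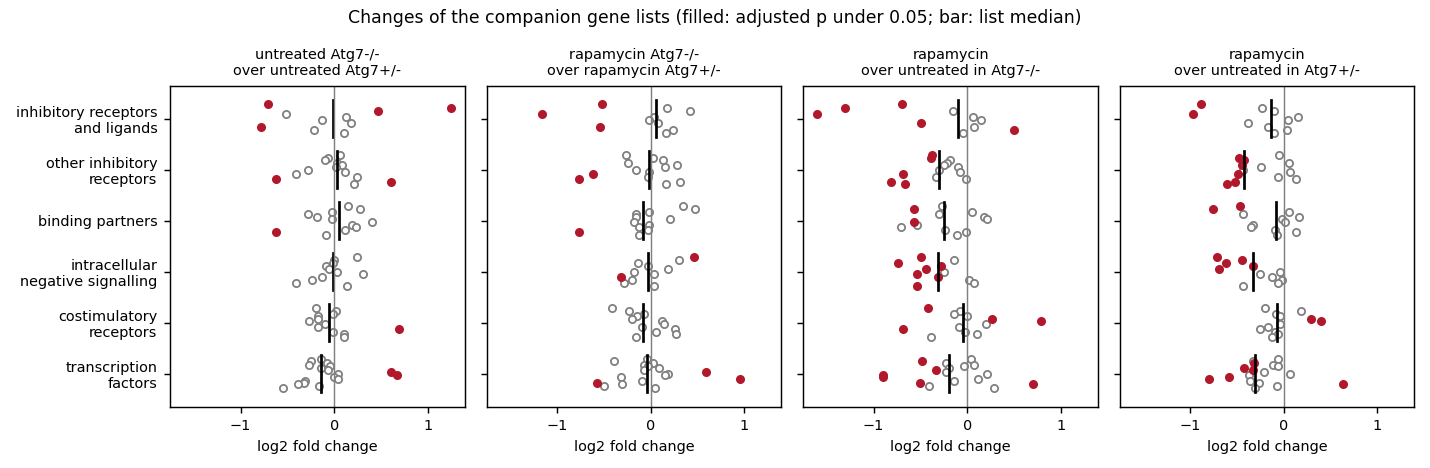
Log2 fold changes (x axes) of the tested genes of the set and of 5 companion lists (rows) in 4 comparisons; filled points passed an adjusted p under 0.05 and bars are list medians. With rapamycin in Atg7+/- cells the median was -0.42 for the other inhibitory receptors and -0.33 for intracellular negative signalling, against -0.03 over all genes tested.

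Companion lists place the set among related genes; they too were drawn up with earlier results known. Of 15 other inhibitory receptors 13 were tested, and Lair1 and Pvrig were not. Between untreated genotypes 1 rose and 1 fell: Pecam1, an adhesion receptor with inhibitory motifs (log2 fold change 0.60, adjusted p = 0.0181), and Cd200r1, the receptor of CD200 (-0.62, adjusted p = 0.0227). The Cd200r1 call was lost without 1 of 5 untreated arrays (up to 0.0805), Atg7+/- replicates 1, 3 and 4 and Atg7-/- replicates 1 and 3. The Pecam1 call was lost with median centring and without Atg7+/- replicate 4 or Atg7-/- replicate 1 or 2 (up to 0.0563). The list's median was 0.03. Between rapamycin genotypes 2 fell, Cd200r1 (-0.77, adjusted p = 0.00982, lost at 0.0571 with only the groups compared) and Lilrb4a, a receptor of the leukocyte immunoglobulin-like family (-0.61, adjusted p = 0.0412, lost in 13 of 25 alternatives, up to 0.117), with a median of -0.02.

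With rapamycin none of these receptors rose. In Atg7+/- cells 6 of 13 fell, with a median log2 fold change of -0.42, against the 14.1% of all genes called. Tigit, a receptor for nectin-family ligands, fell by 0.48 on the log2 scale (limma adjusted p = 0.00779), Pecam1 by 0.52 (adjusted p = 0.0147, lost at 0.0514 without rapamycin replicate 1), Klrc1 by 0.61 (adjusted p = 0.026) and Lilrb4a by 0.49 (adjusted p = 0.047, lost in 12 of 25 alternatives, up to 0.142). Klrc1, an NK receptor gene, averaged 3.39 in rapamycin Atg7+/- cells and 4.00 in untreated Atg7+/- cells, near the dim-gene threshold, and its call was lost without 1 of untreated replicates 2 and 4 and rapamycin replicates 1 and 2 (up to 0.0828). In Atg7-/- cells 5 of 13 fell, with a median of -0.31, against 20.0%: Pecam1 (-0.81, adjusted p = 0.000512), Lilrb4a (-0.69, adjusted p = 0.00525), Klrc1 (-0.66, adjusted p = 0.0123), Tigit (-0.39, adjusted p = 0.017, lost in 4 of 25 alternatives, up to 0.0583) and Ctla4. Ctla4, which encodes the CD28 competitor CTLA-4, was named after its value was seen (-0.37, adjusted p = 0.0139, lost at 0.0649 with only the groups compared).

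Among binding partners of the 10 gene products 12 of 13 were tested, all but Fgl1. Between genotypes Cd200r1 was the 1 gene called, with and without rapamycin. With rapamycin 2 of the 12 fell in each genotype, against 14.1% of all genes called in Atg7+/- cells and 20.0% in Atg7-/- cells, a share near that of all genes. In Atg7+/- cells these were Lgals9, which encodes the TIM-3 ligand galectin-9 (limma, log2 fold change -0.76, adjusted p = 0.00116), and Tnfrsf14, which encodes HVEM (-0.47, adjusted p = 0.0291, lost in 6 of 25 alternatives, up to 0.0885). In Atg7-/- cells Lgals9 (-0.56, adjusted p = 0.0056) and Lgals3, which encodes galectin-3 (-0.56, adjusted p = 0.00398), fell. The list's medians were 0.05 between untreated and -0.08 between rapamycin genotypes. For rapamycin the median was -0.25 in Atg7-/- cells and -0.08 in Atg7+/- cells.

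Genes of intracellular negative signalling, the phosphatases, kinases and adaptors that act below such receptors, were all tested, 11 in number. Between untreated genotypes none was called by limma; the smallest p were those of Dgka, a diacylglycerol kinase (limma, log2 fold change -0.41, adjusted p = 0.0541), and Csk, the kinase that restrains Src-family kinases (0.31, adjusted p = 0.0648). Between rapamycin genotypes Ptpn6, the SHP-1 phosphatase gene, rose (0.47, adjusted p = 0.0158, lost in 3 of 25 alternatives, up to 0.0895) and Ptpn22 fell (-0.32, adjusted p = 0.0459, lost in 17 of 25, up to 0.174).

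With rapamycin 5 of the 11 fell in Atg7+/- cells (median -0.33) and 7 of the 11 in Atg7-/- cells (median -0.31), and none rose in either; of all genes tested, 14.1% were called in Atg7+/- cells and 20.0% in Atg7-/- cells. Ptpn6 fell by 0.72 on the log2 scale in Atg7+/- cells (limma adjusted p = 0.000156) and by 0.50 in Atg7-/- cells (adjusted p = 0.00181). Inpp5d, which encodes the lipid phosphatase SHIP-1, fell by 0.61 in Atg7+/- cells (adjusted p = 0.00027) and by 0.74 in Atg7-/- cells (adjusted p = 2.89e-05). Dok1, an adaptor below CD200R1, fell by 0.69 in Atg7+/- cells (adjusted p = 0.000677) and by 0.45 in Atg7-/- cells (adjusted p = 0.00891). Ptpn11, the SHP-2 phosphatase gene, fell by 0.45 in Atg7+/- cells (adjusted p = 0.0159, lost at 0.0542 without rapamycin replicate 1), with -0.14 in Atg7-/- cells (adjusted p = 0.418). Csk fell by 0.53 (adjusted p = 0.000604) and Dgkz by 0.54 (adjusted p = 0.0152, lost in 2 of 25 alternatives, up to 0.0668) in Atg7-/- cells, with -0.26 (adjusted p = 0.0644) and -0.44 (adjusted p = 0.0538) in Atg7+/- cells.

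For each of the 7 genes called in some comparison, the 3 tested genes with the highest Pearson r of log2 signal over the 16 arrays were found among 14482 candidates. The arrays share their groups, so r is given as a description, followed by r of the deviations from group means. Pdcd1 was most like Pde2a, a phosphodiesterase gene (r = 0.96, deviations 0.74), Abcb1a (0.94 and 0.80) and Emb (0.93 and 0.82). Klrg1 was most like Gem (0.97 and 0.87), Atp2b4 (0.95 and 0.72) and Myo1d (0.95 and 0.74). Havcr2 was most like the caspase gene Casp6 (0.96 and 0.82), the T cell signalling gene Themis (0.96 and 0.71) and the galectin gene Lgals1 (0.95 and 0.77). Fgl2 was most like Lats2 (0.92 and 0.65), Vps37b (0.92 and 0.48) and Rnf125 (0.90 and 0.73), and Lag3 most like Utp18 (0.92 and 0.76), Dcun1d5 (0.92 and 0.72) and Lsm6 (0.89 and 0.80). Cd274 was most like Trappc12 (0.92 and 0.66), Grk6 (0.92 and 0.65) and Apol7e (0.91 and 0.76), and Cd160 most like Grm6 (0.89 and 0.87), St6gal2 (0.89 and 0.65) and Trnp1 (0.86 and 0.57).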

How the data were processed

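Log2 array signals of 16 Treg cell samples, 41345 probe sets each, were used as deposited; the submitters' processing notes name RMA and Partek 6.6 without order or settings. RMA values are log2, the base assumed here, since the file does not state it; the genome build is not given in the sources used here. Probe sets were named through GEO's platform annotation: 23521 had 1 symbol, 1814 several and 16010 were not listed. For genes with several probe sets the brightest was used; the 10 genes had 1 each. Genes were kept where the highest group mean exceeded 3.549, the 30th percentile of all values. The 4 group means were fitted together on the 16 arrays with limma 3.58.1 (R 4.3.3; 12 residual and 5.64 prior degrees of freedom), two-sided, with Benjamini-Hochberg adjustment over 16760 genes and calls at an adjusted p under 0.05. Summed marker signals are sums of 2 to the power of the log2 values, so bright genes weigh most in them. Arrays give no read depth, so their number limits precision.

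Named genes were the 10 genes and, from each companion list and comparison, up to 4 called genes with the largest change or, with none called, up to 2 with the smallest p. The genes and lists were chosen with earlier results of these data known. Alternatives changed the filter, probe set rule, scaling, variance options, array weights, arrays fitted and replicate block, and left out each array in turn. The fit was run on simulated data with independent noise and the same spread of a gene in every group. That run therefore cannot bear on unequal spreads, such as that of Klrg1. No value column was left unmapped.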

Additional observations from a re-analysis of the deposited data

Results flagged for a closer look

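In 3 of the 40 sets of 4 arrays, 1 array stood further from the others than Dixon's 95% limit allows; chance gives about 1 in 20 such sets. Btla in untreated Atg7-/- cells was 10.05 on replicate 4, against 10.11 to 10.12 on the others. Cd200 in untreated Atg7-/- cells was 10.79 on replicate 4, against 10.83 to 10.84. Cd200 in rapamycin Atg7+/- cells was 10.94 on replicate 3, against 11.01 to 11.02. All 3 are in groups with a very small spread, with SDs of 0.0319, 0.0233 and 0.0367.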

How the results depend on the processing

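Of 14 called results for the 10 genes, 9 kept direction and call under all 25 alternatives and none reversed; over their 350 refits 26 lost the call. Between rapamycin genotypes the number of the 10 genes called, 3, became 1 with median centring, 0 with only the groups compared and 0 to 4 without 1 array; for rapamycin in Atg7+/- cells, 2 became 1 to 2 without 1 array. Without rapamycin Atg7+/- replicate 2, Atg7+/- replicate 4 and Atg7-/- replicate 4 the first count was 1, 0 and 1, and without untreated Atg7+/- replicate 2 the second was 1. The cause was not tested. Uncalled values near 0 changed sign: between rapamycin genotypes Cd200 was 0.0362 with median centring and 0.0395 with array weights, and -0.12 to 0.094 without 1 array, where Btla was -0.015 to 0.10. For rapamycin in Atg7+/- cells median centring gave Cd200 -0.00042 and Cd274 -0.00467, and Cd274 was -0.010 to 0.079 without 1 array. For rapamycin in Atg7-/- cells Fgl2 was -0.0085 to 0.16 and Pdcd1lg2 -0.13 to 0.025 without 1 array. For the difference of the rapamycin effects Lag3 was 0.00973 with median centring and -0.15 to 0.032 without 1 array, Cd160 -0.20 to 0.018 and Pdcd1lg2 -0.026 to 0.13.

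Over all genes, 527 were called between untreated genotypes, and 318 with median centring, 974 with array weights, 296, 333, 319 and 284 without Atg7+/- replicates 1 to 4, and 300 and 320 without Atg7-/- replicates 1 and 4. Between rapamycin genotypes 543 were called (320 higher and 223 lower), 820 with the stricter filter, 350 with median centring (253 and 97), 886 with trend and robust options, 20 with only the groups compared, and 223, 95 and 255 without Atg7+/- replicates 1, 2 and 4 and 287 and 269 without Atg7-/- replicates 3 and 4; quantile normalization gave 542 higher and 241 lower. Rapamycin in Atg7+/- cells called 2370 (1011 higher and 1359 lower), 667 higher and 1449 lower with median centring, and 1559 without rapamycin replicate 2.

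The replicate numbers were not shown to pair the samples over all groups: same-numbered arrays had deviations correlated at -0.0829 to 0.358, over 0.1 in 6 of 24 pairs, and 8 of 24 correlated best with their own number. Between the rapamycin genotypes r was 0.24, 0.192, 0.358 and -0.0658 for replicates 1 to 4. The highest r with another number was 0.0536, 0.15, -0.0258 and 0.189 in turn. So replicates 1 to 3 of the rapamycin groups were most alike by number, and a shared batch there was not tested. With the replicate block the counts of the 10 genes were 3 between untreated genotypes, 3 between rapamycin genotypes, 5 for rapamycin in Atg7-/- cells, 3 for the drug in Atg7+/- cells and 0 for the difference.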

Other observations

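Other lists describe what else moved in these cells. Of 12 costimulatory receptors 1 rose between untreated genotypes, Tnfrsf8, the CD30 gene (log2 fold change 0.69, adjusted p = 0.0141, lost at up to 0.0528 without Atg7+/- replicate 1 or Atg7-/- replicate 1). None was called by limma between rapamycin genotypes, where Cd28 and Slamf1 had the smallest p (-0.42, adjusted p = 0.07, and 0.27, adjusted p = 0.108). With rapamycin in Atg7-/- cells Cd27, a receptor of the TNF receptor family, rose (0.79, adjusted p = 7.87e-05), as did Tnfrsf18, the GITR gene (0.26, adjusted p = 0.0241, lost in 3 of 25 alternatives, up to 0.0814), while Tnfrsf8 (-0.68, adjusted p = 0.00323) and Cd28 (-0.42, adjusted p = 0.022, lost in 5 of 25, up to 0.0738) fell, 4 of 12 against 20.0% of all genes called. In Atg7+/- cells Cd27 (0.40, adjusted p = 0.0157) and Tnfrsf18 (0.29, adjusted p = 0.0183, lost in 4 of 25, up to 0.07) rose and none fell, 2 of 12 against 14.1% of all genes called.

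Of 18 transcription factors of T cell activation and exhaustion 17 were tested, all but Tcf7. Prdm1, the Blimp-1 gene (log2 fold change 0.68, adjusted p = 0.0141, lost at 0.0528 without Atg7+/- replicate 4), and Batf, an AP-1 family factor (0.60, adjusted p = 0.0088), rose between untreated genotypes and none fell, against 3.14% of all genes called. Between rapamycin genotypes Tbx21, the T-bet gene (0.96, adjusted p = 0.00689, lost at 0.0675 with only the groups compared), and Batf (0.59, adjusted p = 0.0144, lost in 2 of 25 alternatives, up to 0.083) rose and Bcl6 fell (-0.57, adjusted p = 0.0485, lost in 17 of 25, up to 0.181), against 3.24% of all genes called. With rapamycin in Atg7-/- cells 5 fell and 1 rose, against 20.0% of all genes called, and the falls were led by Prdm1 (-0.90, adjusted p = 0.000363), Maf (-0.90, adjusted p = 0.00314, lost at 0.0722 with the mean of its probe sets) and Bcl6 (-0.51, adjusted p = 0.0267, lost in 6 of 25, up to 0.0808). In Atg7+/- cells 5 fell and 1 rose, against 14.1% of all genes called, and the falls were led by Tbx21 (-0.80, adjusted p = 0.00487), Maf (-0.59, adjusted p = 0.0472, lost in 14 of 25, up to 0.434) and Nfatc1 (-0.42, adjusted p = 0.0219, lost in 3 of 25, up to 0.0657). Bach2, a repressor of effector genes, was the 1 that rose in both, by 0.70 in Atg7-/- cells (adjusted p = 0.00179) and 0.63 in Atg7+/- cells (adjusted p = 0.00582).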
